A study of Mus musculus with 27 samples.

Results

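Oxidative phosphorylation couples the oxidation of NADH and succinate to ATP synthesis in the inner mitochondrial membrane. Complexes I to IV pass electrons to oxygen and pump protons, and complex V, the ATP synthase, lets the protons return through a rotating ring of c subunits. Most of the subunits are encoded in the nucleus, and a few are encoded in mitochondrial DNA. Undifferentiated embryonic stem cells are known for a high glycolytic flux, and oxidative metabolism is known to be remodelled as they differentiate.

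The genes described here were every row of the 3 count tables whose symbol began with Nduf followed by a, b, c, s or v and a digit, with Uqcr, with Cox followed by 4 to 8, or with Atp5, or was Sdha, Sdhb, Sdhc or Sdhd. This gave 87 of 27080 genes. The rule also asked for mitochondrially encoded genes, which were not analysed here, so the description covers nuclear genes. Of the 87, 82 encode nuclear subunits: 35 of complex I, 4 of complex II, 8 of complex III, 20 of complex IV and 15 of complex V. Ndufa4 and Ndufa4l2 were placed in complex IV, where the Ndufa4 protein is known to sit. The other 5 matched by name only. Cox4nb encodes a subunit of an endoplasmic reticulum complex, Atp5s a coupling factor and Atp5sl a relative of it, and Atp5l-ps1 and Atp5l2 are copies of Atp5l.

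RNA-seq was available for 12 libraries of J1 cells, a mouse embryonic stem cell (mESC) line grown without feeders in medium with serum and LIF. Cells infected with the non-targeting control shRNA shCon (n = 3) were compared with cells infected with shGas41-1 (n = 3) or shGas41-2 (n = 2), shRNAs against Gas41 (Yeats4), a reader subunit of the complexes that deposit the histone variant H2A.Z. The knockdown cells were harvested 8 days after infection. A separate pair of shCon libraries of undifferentiated cells (EB day 0, n = 2) was compared with shCon embryoid bodies grown without LIF to day 6 (EB day 6, n = 2). All libraries came from the same line, all cells carried an shRNA, and nothing in the labels says that replicates were separate infections, so the p-values measure the spread between these libraries.

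Libraries held 59224537 to 81524773 counted reads, and a count of 3 corresponded to between 0.0368 and 0.0507 CPM, the count of a gene relative to the library total. CPM values below were scaled by the trimmed mean of M values (TMM), with factors from 0.9456 to 1.05. Yeats4 stood at 51.3 to 61.1 CPM in shCon, 3.46 to 5.07 in shGas41-1 and 7.97 to 8.81 in shGas41-2. Summed markers of primitive streak and mesoderm stood at 9.46 to 10.1 CPM at EB day 0 and 1270 to 1860 at EB day 6, and summed markers of undifferentiated mESCs at 5720 to 6020 and 1330 to 1690 CPM. Endoderm markers summed to 60 to 154 CPM and cardiomyocyte markers to 1.42 to 1.92 CPM at EB day 6. In the knockdown set, mESC markers summed to 5960 to 6380 CPM in shCon, 4960 to 5700 in shGas41-1 and 5990 in both shGas41-2 libraries. Single markers moved in both directions. Tfcp2l1, a transcription factor of naive pluripotency, stood at 585 to 1080 CPM in shCon, 172 to 361 in shGas41-1 and 434 to 458 in shGas41-2. Klf4 stood at 223 to 319, 91.7 to 136 and 156 to 169 CPM in these groups, and Esrrb was lower too. Zfp42 was higher, at 1170 to 1550, 1420 to 2220 and 1600 to 1750 CPM, although shGas41-1 overlapped shCon. Dppa3 also rose, from at most 0.441 CPM in shCon to at least 0.622 CPM in every knockdown library. Pou5f1 overlapped shCon with both shRNAs. The neural factor gene Pax6 stood at 1.24 to 3.61, 9.99 to 13.2 and 4.63 to 4.99 CPM, while Neurog2 stood at no more than 0.0395 CPM and Sox1 was not analysed here. The part of cell makeup in the results below was not tested. The libraries are bulk samples, so a change in the makeup of the cells and a change of RNA per cell cannot be told apart. The library shGas41-1 replicate 3 stood apart: its 87 genes summed to 13897 CPM, against 11030 and 10653 in the other shGas41-1 libraries and 10071 to 11620 in shCon.

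Members of a single complex moved in opposite directions among the genes of subunit c of ATP synthase. Atp5g1, Atp5g2 and Atp5g3 encode precursors with different mitochondrial targeting leaders and the same mature protein. In the GENCODE vM1 transcripts of mm9, the last 228 bases of the coding sequence encoded the same 75 residues and the stop in all 3 genes. The sequences below show how the same protein is written in the transcripts that moved in opposite directions. Capitals mark bases that differ from Atp5g1 at the same position.
Atp5g1: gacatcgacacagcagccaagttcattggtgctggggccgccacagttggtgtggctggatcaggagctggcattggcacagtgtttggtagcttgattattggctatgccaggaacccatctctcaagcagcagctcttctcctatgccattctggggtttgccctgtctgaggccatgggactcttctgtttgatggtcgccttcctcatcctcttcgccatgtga
Atp5g2: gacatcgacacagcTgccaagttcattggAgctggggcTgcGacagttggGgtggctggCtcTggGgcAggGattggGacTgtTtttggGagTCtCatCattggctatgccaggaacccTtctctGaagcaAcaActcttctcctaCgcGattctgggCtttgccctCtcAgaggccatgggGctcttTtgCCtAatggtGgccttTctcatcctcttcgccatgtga
Atp5g3: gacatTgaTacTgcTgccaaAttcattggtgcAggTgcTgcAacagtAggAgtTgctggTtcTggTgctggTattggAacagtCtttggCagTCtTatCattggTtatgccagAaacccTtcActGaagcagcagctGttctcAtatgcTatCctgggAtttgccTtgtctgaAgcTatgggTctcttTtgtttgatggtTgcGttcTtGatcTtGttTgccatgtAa
Atp5g2 differed from Atp5g1 at 34 bases (85.1% identity) with a longest shared run of 21 bases, and Atp5g3 differed from Atp5g1 at 46 bases (79.8% identity) with a longest shared run of 11 bases. The coding leaders before this stretch spanned 61 codons in Atp5g1, 71 in Atp5g2 and 66 in Atp5g3. In mm9, Atp5g1 lies at chr11:95930166-95936984, Atp5g2 at chr15:102493299-102501478 and Atp5g3 at chr2:73746504-73749383, all on the minus strand. Windows of 50 bases from the exons of Atp5g1 recurred elsewhere in mm9 in 28.1% of cases, those of Atp5g2 in 100% and those of Atp5g3 in 0%, so the Atp5g2 counts depend on how reads with several matches were treated, which is not given in the sources used here.

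The 3 genes also differed at their promoters. RefSeq sequences of GRCm38.p6 from 250 bases before to 50 after the annotated start were searched on both strands for GCGCANGCG, a core of the motif of NRF1, a known activator of respiratory genes. Capitals mark matches. The promoters are Atp5g1 (chr11:96075582-96075881, minus strand), Atp5g2 (chr15:102670998-102671297, minus strand) and Atp5g3 (chr2:73911277-73911576, minus strand).
Atp5g1 promoter: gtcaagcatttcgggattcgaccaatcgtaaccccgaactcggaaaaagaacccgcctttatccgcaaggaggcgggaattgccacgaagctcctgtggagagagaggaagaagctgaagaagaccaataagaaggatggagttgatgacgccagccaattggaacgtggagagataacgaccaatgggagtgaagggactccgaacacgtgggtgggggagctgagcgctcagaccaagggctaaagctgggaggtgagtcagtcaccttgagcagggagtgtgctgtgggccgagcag
Atp5g2 promoter: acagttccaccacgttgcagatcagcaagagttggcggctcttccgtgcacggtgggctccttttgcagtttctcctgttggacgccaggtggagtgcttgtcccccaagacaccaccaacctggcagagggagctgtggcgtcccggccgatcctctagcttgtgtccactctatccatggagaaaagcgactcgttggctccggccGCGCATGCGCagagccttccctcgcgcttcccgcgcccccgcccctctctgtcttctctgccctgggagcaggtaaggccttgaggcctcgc
Atp5g3 promoter: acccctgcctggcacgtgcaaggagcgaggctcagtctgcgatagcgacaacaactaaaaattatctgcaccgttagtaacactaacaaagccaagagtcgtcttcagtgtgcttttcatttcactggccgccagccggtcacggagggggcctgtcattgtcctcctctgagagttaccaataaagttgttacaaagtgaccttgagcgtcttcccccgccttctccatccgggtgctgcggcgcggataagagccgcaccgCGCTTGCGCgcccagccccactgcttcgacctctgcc
Atp5g2 held the motif at overlapping positions on opposite strands, Atp5g3 held 1 match, and the Atp5g1 window held 0. Over 71 promoters of the 66 members found by symbol, 29.6% held the motif, against 6.2% of all 32851 promoters in the table. The ETS core CCGGAAG was held by 22.5% of member promoters against 8.9% of all, the YY1-type AANATGGC by 22.5% against 6.1%, the cAMP response element TGACGTCA by 5.6% against 1.8%, and the hypoxia response core ACGTG by 23.9% against 19.6%. In the 3 windows printed above, the ETS, YY1-type and cAMP response cores had 0 matches. The hypoxia response core had 3 in Atp5g1, 1 in Atp5g2 and 2 in Atp5g3. Most member promoters lacked the NRF1 motif, so its absence does not set Atp5g1 apart from the members. These matches describe letters in the windows and show no binding.

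From EB day 0 to EB day 6, Atp5g1 fell while Atp5g2 and Atp5g3 rose. Atp5g1 stood at 146 and 152 CPM at day 0 and at 69.0 and 69.0 CPM at day 6. This is a log2 fold change of -1.13 ± 0.07 (SE; edgeR quasi-likelihood test, adjusted p = 5.71e-05). Atp5g2 stood at 139 and 149 CPM at day 0 and at 181 and 200 CPM at day 6, a log2 fold change of 0.39 ± 0.09 (adjusted p = 0.00839). Atp5g3 stood at 197 and 202 CPM at day 0 and at 238 and 259 CPM at day 6, a log2 fold change of 0.30 ± 0.08 (adjusted p = 0.0186). The days did not overlap for any of the 3 genes. The Atp5g1 call held in all 10 alternatives run. The Atp5g2 call was lost without EB day 0 replicate 2 (adjusted p = 0.0915) or replicate 3 (adjusted p = 0.074). The Atp5g3 call was lost without either of these libraries (adjusted p = 0.132 and 0.113), without EB day 6 replicate 3 (adjusted p = 0.0771) and with upper-quartile scaling (adjusted p = 0.063), with no change of sign. Their sum was 492 ± 14.9 CPM at day 0 and 508 ± 28.4 CPM at day 6 (SD, n = 2 each), ranges that overlapped, while the share of Atp5g1 in the sum went from 30.2% ± 0.07 to 13.6% ± 0.71. The shares are of CPM, which count long transcripts more than short ones.

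**Figure D1:**
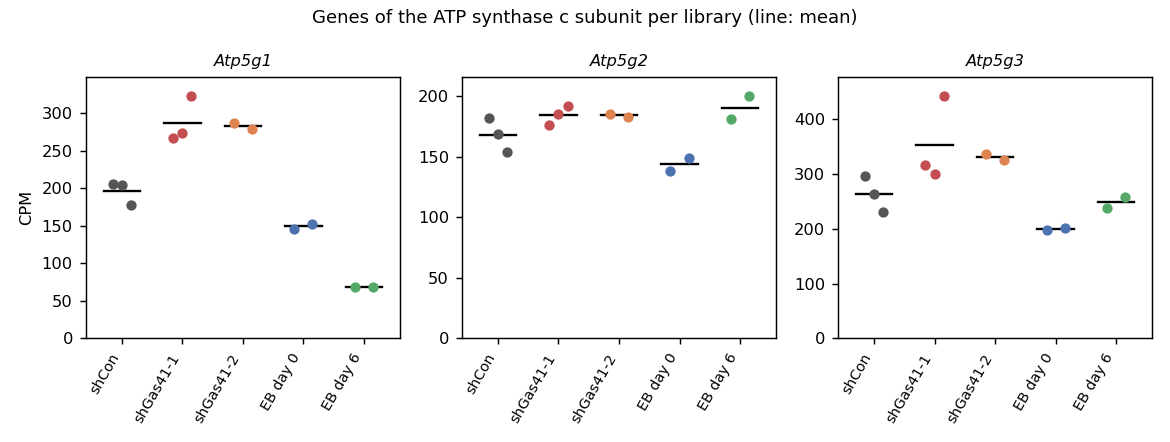
CPM of the 3 genes of the ATP synthase c subunit in each library (points) with group means (lines), each axis starting at 0. Atp5g1 is highest in the knockdown libraries and lowest at EB day 6, whereas Atp5g2 and Atp5g3 at EB day 6 lie above EB day 0.

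After Gas41 knockdown, Atp5g1 moved the other way. It stood at 205, 205 and 177 CPM in shCon, at 267, 274 and 322 in shGas41-1 and at 287 and 279 in shGas41-2. The log2 fold change was 0.58 ± 0.14 (adjusted p = 0.0219) for shGas41-1 and 0.54 ± 0.10 (adjusted p = 0.0169) for shGas41-2. Every knockdown library lay above every shCon library, and the shCon libraries are the same in both comparisons. Neither sister gene passed the test: Atp5g3 had log2 fold changes of 0.45 (adjusted p = 0.124) and 0.33 (adjusted p = 0.111), and Atp5g2 of 0.16 (adjusted p = 0.402) and 0.14 (adjusted p = 0.401). The day 0 to day 6 change of Atp5g1 minus its mean knockdown change was -1.65 ± 0.16 in log2 (adjusted p = 7.18e-06), and stayed past the threshold under all 15 alternatives tried for this contrast. Among the fits that left out a library, the Atp5g1 knockdown calls were lost without shCon replicate 2, without shCon replicate 3 or shGas41-1 replicate 1 in the shGas41-1 comparison, and without either shGas41-2 library in the shGas41-2 comparison. The shGas41-2 call was also lost in a fit over 8 libraries (adjusted p = 0.0515). The Atp5g1 log2 fold changes lay between 0.46 and 0.67 in every alternative run for the knockdown comparisons.

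The embryoid body comparison asked how transcripts change as mESCs leave the undifferentiated state. Of 83 members tested, 40 fell (48.2%) and 6 rose (7.23%) at an adjusted p of at most 0.05, against 28.4% of all 18287 tested genes falling and 30.5% rising. The falls were small, with a median member log2 fold change of -0.26 (interquartile range -0.43 to -0.04) against -0.003 for all genes tested, and 68 of the 83 values were below 0. Between the sets of undifferentiated shCon cells, EB day 0 against shCon, the member median was -0.34, further from 0 than the day 6 median. The part of such differences between cultures in the day 6 values was not tested. Past 2-fold, 1 member fell (Atp5g1) and 1 rose (Ndufa4l2), against 14.7% of all tested genes falling that far and 16.6% rising. The 4 members not tested were Cox6a2, Cox7b2, Cox8b and Cox8c. Without EB day 0 replicate 3, which left 1 library at day 0, far fewer members were called. The share of members falling was then below that of all genes instead of above it. The member median in that fit was -0.209, against 0.002 for all genes. Without EB day 0 replicate 2 fewer members were called too, with the share falling still above that of all genes. The medians there were -0.298 for members and 0.016 for all genes. The median stayed between -0.30 and -0.20 whichever library was left out.

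**Figure D2:**
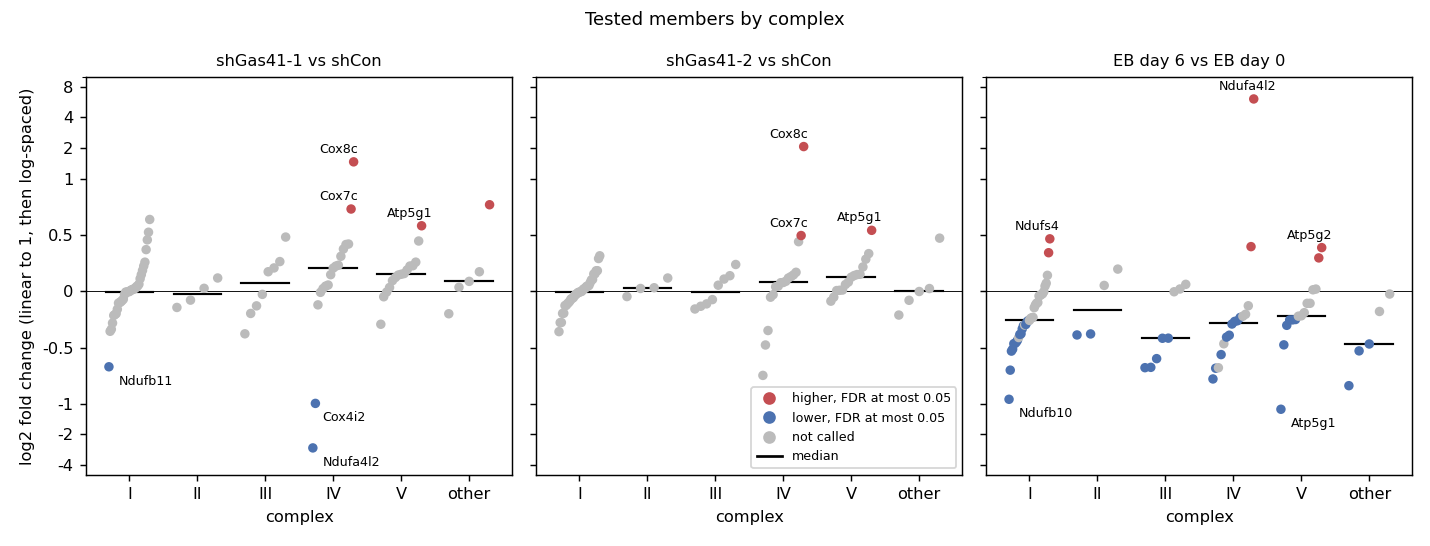
Log2 fold change of each tested member (points) by complex in the 3 comparisons, with the median of each complex as a line; the vertical axis is linear between -1 and 1 and log-spaced beyond. Most complexes sit near 0 after knockdown, and their medians lie below 0 at EB day 6.

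Complex I, which takes electrons from NADH, held 15 members that fell and 2 that rose among 35 tested, with a median log2 fold change of -0.26. The counts for this and the other complexes, and for their parts, are to be read against 28.4% of all tested genes falling and 30.5% rising. Of its 7 core subunits, which carry the flavin and the iron-sulfur clusters, 3 fell, among them Ndufs1 (-0.47) and Ndufv1 (-0.46). Of the 28 accessory subunits, 12 fell and 2 rose. Ndufb10, an accessory subunit of the membrane arm, showed the largest fall in the complex. It stood at 55.8 and 60.1 CPM at day 0 and at 29.9 and 30.5 CPM at day 6, with a log2 fold change of -0.96 ± 0.08 (adjusted p = 0.000155). Ndufb4, also of the membrane arm, went from 47.3 and 49.6 CPM to 27.5 and 33.0 CPM, with a log2 fold change of -0.70 ± 0.11 (adjusted p = 0.00181). Ndufb4 has 34.0% of its 50-base windows elsewhere in the genome. Against these, Ndufs4, an accessory subunit late in the assembly of the NADH-binding module, rose from 31.6 and 34.0 CPM to 43.1 and 48.7 CPM (log2 fold change 0.47 ± 0.10, adjusted p = 0.00615). Ndufv3, of the same module, rose from 27.4 and 32.7 CPM to 39.8 and 37.4 CPM (log2 fold change 0.34 ± 0.11, adjusted p = 0.033), a call lost with upper-quartile scaling (adjusted p = 0.0784) and with library size alone (adjusted p = 0.0818). Without either EB day 0 library the Ndufs4 and Ndufv3 calls were lost. Neighbouring subunits of a module moved in opposite directions, and Ndufv1 fell from 105 and 115 CPM to 78.7 and 83.1 CPM (adjusted p = 0.00351).

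Complex II, succinate dehydrogenase, is wholly nuclear in origin and also acts in the TCA cycle. Sdhb, the iron-sulfur subunit, fell from 45.8 and 51.7 CPM to 38.4 and 37.5 CPM (log2 fold change -0.38 ± 0.09, adjusted p = 0.0112). Sdhc, a membrane anchor, fell from 120 and 135 CPM to 95.1 and 102 CPM (log2 fold change -0.39 ± 0.09, adjusted p = 0.00977). The flavoprotein gene Sdha stood at 171 and 188 CPM at day 0 and at 188 and 188 CPM at day 6, with a log2 fold change of 0.05 (adjusted p = 0.606). The other anchor gene, Sdhd, stood at 123 and 134 CPM at day 0 and at 147 and 151 CPM at day 6, with a log2 fold change of 0.20 (adjusted p = 0.0725). After knockdown none of the 4 was called with either shRNA by edgeR, with log2 fold changes between -0.14 and 0.12.

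Complex III, which passes electrons from ubiquinol to cytochrome c, had the lowest median of the 5 complexes, -0.42, with 5 of 8 members falling and 0 rising. The core protein gene Uqcrc1 fell from 122 and 131 CPM to 81.8 and 78.7 CPM (log2 fold change -0.68 ± 0.08, adjusted p = 0.000552). Uqcrq fell by 0.68 on the log2 scale, Uqcr10 by 0.60, and Uqcr11 and Uqcrb by 0.42 each; all are small subunits around the catalytic core. The 3 not called included Uqcrfs1, the Rieske iron-sulfur protein, at 129 and 143 CPM at day 0 and at 145 and 143 CPM at day 6.

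Complex IV, cytochrome c oxidase, held 9 members that fell and 2 that rose among 16 tested (median -0.28). Cox6a1 fell from 134 and 147 CPM to 80.2 and 86.0 CPM (log2 fold change -0.78 ± 0.08, adjusted p = 0.000416). Cox4i1, the common form of the subunit through which the complex responds to ATP, fell from 295 and 321 CPM to 192 and 197 CPM (log2 fold change -0.68 ± 0.08, adjusted p = 0.000567). Cox7a2l, which encodes a factor that joins complexes III and IV into supercomplexes, rose from 138 and 153 CPM to 188 and 200 CPM (log2 fold change 0.40 ± 0.09, adjusted p = 0.00758), and 53.2% of its 50-base windows recur elsewhere in the genome. Ndufa4l2, a paralogue of Ndufa4 known as a target of hypoxia-inducible factor, was counted 3 and 7 times at day 0 and 212 and 457 times at day 6, or 0.04 and 0.11 CPM against 3.20 and 6.92 CPM. Its ratio was 71.2 (95% counting interval 38.5 to 149), with an adjusted p of 0.000261. The interval covers counting error only and leaves out the spread between cultures. For this gene EB day 0 lay below every library of the other undifferentiated shCon set. That difference was -4.005 ± 0.973 in log2 (edgeR, adjusted p = 0.0914), so the ratio depends on which undifferentiated cells are taken. Ndufa4 stood at 76.1 and 76.3 CPM at day 0 and at 64.3 and 69.8 CPM at day 6 (adjusted p = 0.0638).

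Complex V held 6 members that fell and 2 that rose among 15 tested, with a median of -0.22. These are few genes to set against the 28.4% of all tested genes that fell and the 30.5% that rose. Outside the c subunit genes, the falls were Atp5l (-0.48), the catalytic beta subunit gene Atp5b (-0.30), and Atp5j, Atp5o and Atp5f1 of the stalk (-0.25 each). Atp5b went from 1785 and 2035 CPM to 1553 and 1585 CPM (adjusted p = 0.0333). The alpha subunit gene Atp5a1 was not called, at 768 and 838 CPM at day 0 and 734 and 777 CPM at day 6. The counts of Atp5l (89.4% of its 50-base windows elsewhere in the genome) and of its copies Atp5l2 and Atp5l-ps1 cannot be separated with confidence, and both copies fell as well, by 0.53 and 0.84 on the log2 scale. Among the names that are no subunits, Cox4nb fell by 0.47 on the log2 scale (adjusted p = 0.00227), and Atp5s and Atp5sl were not called, at -0.02 and -0.18.

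The summed CPM of each complex followed the single genes. Complex I summed to 1560 and 1687 CPM at day 0 and to 1365 and 1442 CPM at day 6, complex III to 698 and 760 against 598 and 611 CPM, complex IV to 1506 and 1639 against 1250 and 1303 CPM, and complex V to 4028 and 4438 against 3652 and 3827 CPM. In these 4 complexes the days did not overlap. Complex II overlapped, at 459 and 509 CPM against 469 and 478 CPM. Sums weigh long and abundant transcripts most, and no test was made on them.

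**Figure D3:**
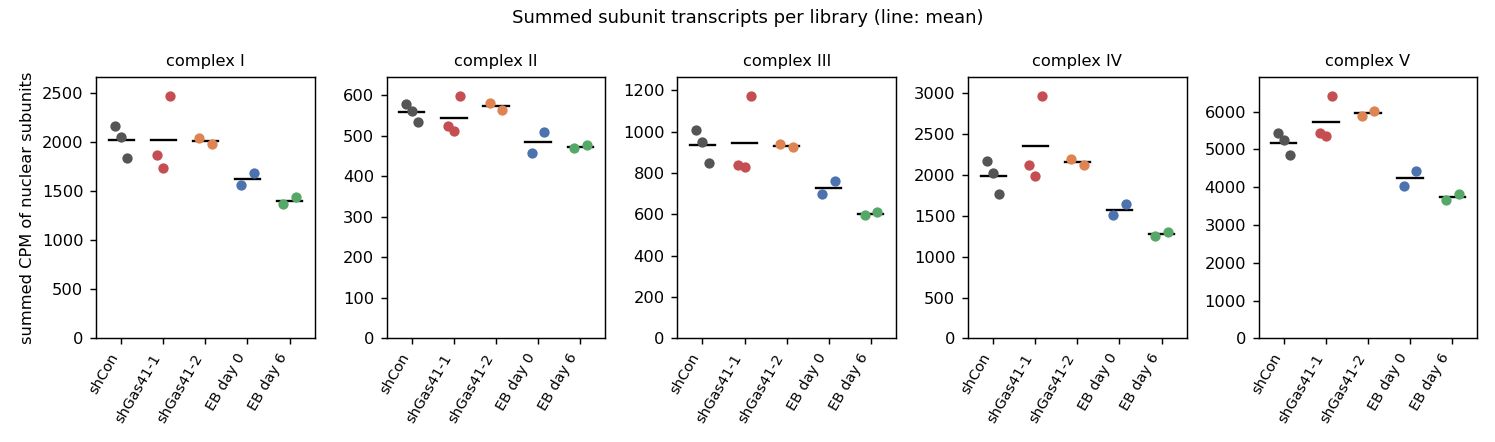
Summed CPM of the nuclear subunits of each complex in each library (points) with group means (lines), each axis starting at 0. The library shGas41-1 replicate 3 lies above every other library in each complex, and the EB libraries lie below the shCon libraries in each complex.

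Gene groups around the complexes were counted in the same comparison, to be read against the 28.4% of all tested genes that fell and the 30.5% that rose; shares near these say nothing particular to a list. Of 80 mitochondrial ribosomal protein genes, 44 fell and 3 rose, with a median log2 fold change of -0.30. Assembly factors of complex I fell in 6 of 10 tested, among them Foxred1 (-0.75), Ecsit (-0.70) and Tmem186 (-0.55), and those of complex IV in 6 of 12, among them the copper chaperone Cox17 (-0.89); 0 rose in either list. Assembly factors of complex III fell in 2 of 4 (Lyrm7, -1.62, and Bcs1l, -0.68), and Sdhaf1 (-0.63) was the 1 of 3 complex II factors called. For ATP synthase factors 1 of 6 rose (Tmem70, 0.31) and 1 fell (Atpaf1, -0.38). Of 15 genes of mitochondrial DNA replication and transcription, 6 fell, including the polymerase gene Polrmt (-0.53) and Tfb1m (-0.95), and Grsf1 rose (0.81). In the TCA cycle list 6 of 16 fell, including Cs (-0.41) and Pdhb (-0.64), and Dlst rose (0.37). The biogenesis regulators were mixed, with 4 of 11 rising, among them Ppargc1b (1.05) and Nrf1 (0.30), and 3 falling, among them Gabpa (-0.48) and Esrrb (-4.31). The carriers were mixed too: 4 of 8 rose, including Slc25a4 (0.49) and Ucp2 (0.49), and 2 fell, Vdac1 (-0.61) and the germ cell form Slc25a31 (-4.33). Cytochrome c1 (Cyc1) fell by 0.27 and testis cytochrome c (Cyct) by 2.85 on the log2 scale, and somatic cytochrome c (Cycs) was not called.

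The knockdown comparisons asked whether the loss of Gas41 changed the same transcripts in cells kept in medium with LIF. With shGas41-1, 4 of 84 members tested rose (4.76%) and 3 fell (3.57%), against 10.8% and 7.73% of all 18274 tested genes. With shGas41-2, 3 of 84 rose (3.57%) and 0 fell, against 5.94% and 3.97% of 18405 tested genes; DESeq2 called 4 higher and 1 lower, and at an unadjusted p under 0.05 edgeR had 6 higher and 3 lower. The member medians were 0.04 and 0.03 in log2. Past 2-fold, Cox8c rose with shGas41-1 and Ndufa4l2 fell, against 7.9% and 2.4% of all genes, and Cox8c rose with shGas41-2, against 3.96% of all genes rising and 0.869% falling that far. With library size alone in place of TMM the counts were 3 rising and 5 falling for shGas41-1 and 2 and 2 for shGas41-2. Over all genes, this scaling turned 1971 rising and 1412 falling into 1734 and 1752 for shGas41-1, and 1094 and 730 into 961 and 1290 for shGas41-2, and upper-quartile scaling gave 2386 and 1029 for shGas41-1.

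These knockdown counts rested on single libraries, and the counts over all genes moved in these fits too. For shGas41-1, edgeR called 0 members without shCon replicate 2 (7 at an unadjusted p under 0.05), against 962 higher and 479 lower of 18819 genes. It called 0 without shGas41-1 replicate 1 (11 at an unadjusted p under 0.05), against 1086 and 517 of 18489 genes. Without shCon replicate 3 it called 1 lower and 0 higher, against 555 lower and 1065 higher of 18694 genes. Leaving out shGas41-1 replicate 3, the library that stood apart, gave 3 higher and 7 lower of 85 members. Over all genes that fit gave 2092 higher and 1756 lower of 18676. For shGas41-2, edgeR called 0 without shCon replicate 2 (4 at an unadjusted p under 0.05), against 456 higher and 132 lower of 18427 genes. Without shCon replicate 1 it called 8 higher and 1 lower of 84 members, against 2198 and 1933 of 18327 genes. Without shGas41-2 replicate 1 or replicate 2, which left 1 library in that group, the member medians were 0.002 and 0.06 in log2.

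Cox7c, a small complex IV subunit, rose with both shRNAs. It stood at 235, 207 and 186 CPM in shCon, at 308, 262 and 451 in shGas41-1 and at 300 and 286 in shGas41-2, with no overlap between the shCon and the knockdown libraries. The log2 fold changes were 0.73 ± 0.21 (adjusted p = 0.0453) and 0.49 ± 0.11 (adjusted p = 0.0356). The shGas41-1 value lay between 0.45 (without shGas41-1 replicate 3) and 0.90 (without shGas41-1 replicate 2), and its call was lost without any 1 of the shCon libraries or shGas41-1 replicate 1. The shGas41-2 call of Cox7c was lost with library size alone (adjusted p = 0.0553), in the fit over 8 libraries (adjusted p = 0.231) and without shCon replicate 2 or either shGas41-2 library. A share of 29.9% of its 50-base windows recur elsewhere in the genome. At EB day 6 Cox7c fell from 172 and 186 CPM to 154 and 147 CPM (log2 fold change -0.27, adjusted p = 0.0266).

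Cox8c, a form of complex IV subunit 8 known from testis, was the member with the largest rise after knockdown, at low counts. It was counted 29, 10 and 17 times in shCon, 57, 49 and 55 times in shGas41-1 and 94 and 89 times in shGas41-2. The log2 fold changes were 1.46 ± 0.43 (adjusted p = 0.0461) and 2.07 ± 0.43 (adjusted p = 0.0274). The shGas41-1 call of Cox8c was lost with library size alone (adjusted p = 0.0535) and without shGas41-1 replicate 3 (adjusted p = 0.0872), replicate 1 or shCon replicates 2 or 3. EB day 0 had 7 and 5 counts and EB day 6 had 0 and 0. The level stayed far below that of Cox8a, the common form: per kilobase of exon, shCon held 0.592 CPM of Cox8c and 391 CPM of Cox8a. Further genes of germ cell mitochondria in the fixed lists were Slc25a31, which rose with shGas41-1 (log2 fold change 1.43, adjusted p = 0.00624) and with shGas41-2 (1.16, adjusted p = 0.0319), and Cyct, which was not called with either shRNA. Haploid germ cell markers summed to at most 0.098 CPM in any knockdown library.

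3 members fell with shGas41-1. Ndufb11, an X-linked accessory subunit of complex I, stood at 77.7, 78.8 and 66.4 CPM in shCon, at 41.1, 44.8 and 51.7 in shGas41-1 and at 55.6 and 59.7 in shGas41-2. Its log2 fold change was -0.67 ± 0.15 (adjusted p = 0.0157) with shGas41-1 and -0.36 ± 0.11 (adjusted p = 0.0828) with shGas41-2, and every knockdown library lay below every shCon library. Cox4i2, the form of Cox4 known from lung and from hypoxia, stood at 0.865, 1.145 and 1.005 CPM in shCon and at 0.49, 0.37 and 0.64 in shGas41-1 (log2 fold change -0.996 ± 0.284, adjusted p = 0.0421), with 0.70 and 0.74 CPM in shGas41-2 (adjusted p = 0.261). The Cox4i2 call was lost with upper-quartile scaling (adjusted p = 0.0606) and without any 1 of the shCon libraries or shGas41-1 replicates 1 or 2. Ndufa4l2 was counted 12, 97 and 143 times in shCon, 10, 21 and 7 times in shGas41-1 and 32 and 77 times in shGas41-2. Its fall with shGas41-1 (log2 fold change -2.72 ± 0.73, adjusted p = 0.0343) rested on groups that overlapped, since shCon replicate 1 lay within the range of the shGas41-1 libraries, and the shGas41-2 value did not pass the test (adjusted p = 0.564). Atp5s, no subunit of the enzyme, rose with shGas41-1 from 3.77, 3.75 and 3.23 CPM to 6.32, 5.33 and 6.34 CPM (log2 fold change 0.77 ± 0.17, adjusted p = 0.0163) and had 5.18 and 4.69 CPM in shGas41-2 (adjusted p = 0.096).

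**Figure D4:**
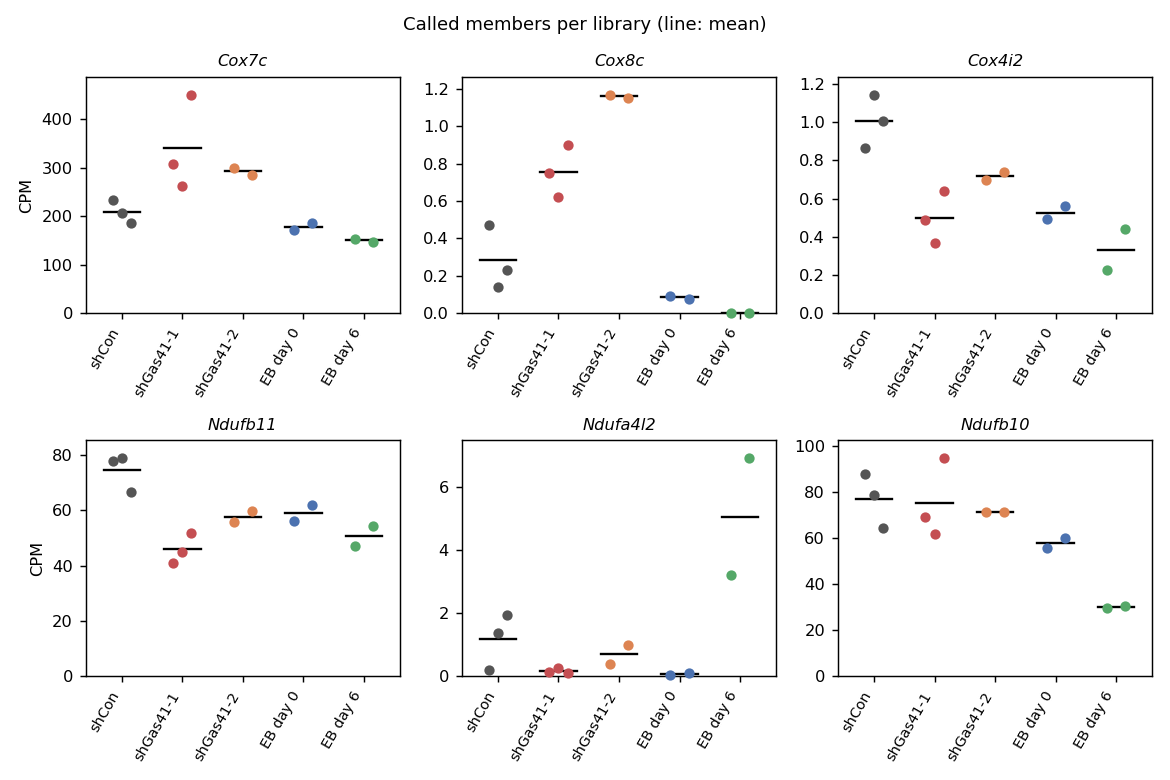
CPM in each library (points) with group means (lines) for 6 members that a comparison called, each axis starting at 0. Cox7c and Cox8c lie above shCon in every knockdown library, Ndufb11 lies below shCon in every knockdown library, and Ndufa4l2 is highest at EB day 6.

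The acyl carrier protein gene Ndufab1, a complex I subunit that also serves fatty acid synthesis and whose symbol the rule leaves out, changed more than any complex I member after knockdown. It stood at 146, 141 and 106 CPM in shCon, at 261, 244 and 379 in shGas41-1 and at 277 and 307 in shGas41-2. The log2 fold changes were 1.197 ± 0.212 (adjusted p = 0.00759) and 1.17 ± 0.15 (adjusted p = 0.00411), and at EB day 6 it fell by 0.31 on the log2 scale (adjusted p = 0.0208). Copies of this gene in the genome were not counted. Among the assembly factors, Surf1 of complex IV fell with both shRNAs (-1.31 and -0.87) and Ndufaf3 of complex I did too (-0.71 and -0.50), 1 of 12 and 1 of 10 tested. Polg2, the accessory subunit of the mitochondrial DNA polymerase, rose with both (1.27 and 1.28), the only gene called of 15 in its list. The mitochondrial ribosomal protein genes were called 3 higher and 4 lower of 80 with shGas41-1, and 3 higher and 2 lower with shGas41-2. In the TCA cycle list 3 of 16 fell with shGas41-1 (Dlat, Suclg2 and Idh3g) and 0 with shGas41-2. Of the assembly factors of complexes II and III and of ATP synthase, 1 of 13 rose with shGas41-1 (Acn9, 0.68), and none was called with shGas41-2 by edgeR. These counts are to be read against 10.8% of all tested genes rising and 7.73% falling with shGas41-1, and 5.94% and 3.97% with shGas41-2. Shares near or below these say nothing particular to a list.

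The shRNAs were compared with each other in a fit over 8 libraries. edgeR called 0 of 85 members and 0 of 19146 genes in either direction (0%), with 1 member at an unadjusted p under 0.05. DESeq2 called 0 of 84 members, against 69 genes higher and 95 lower of 18169. The median member difference, shGas41-1 minus shGas41-2, was 0.05 in log2, and the difference was -0.60 ± 0.38 for Cox8c, 0.24 ± 0.22 for Cox7c and 0.05 ± 0.14 for Atp5g1 (log2, SE).

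The day 0 to day 6 change was then set against the mean knockdown change in a fit over all 12 libraries. Of 85 members, 17 had a lower change in embryoid bodies (20%) and 1 a higher change, Ndufa4l2, against 22.8% and 22.9% of 19684 genes. The share of lower members was therefore near that of all genes, while higher members were fewer. The median member difference was -0.28 in log2 against -0.02 for all genes. Complex IV held 6 of the 17, complex III 4, complexes I and V 2 each, and the names that are no subunit or are copies 3. Without EB day 0 replicate 3 the lower count was 4, and without either EB day 6 library it was 6; it was 7 without shCon replicate 3, 9 without shGas41-2 replicate 2, 10 without EB day 0 replicate 2 and 11 without shCon replicate 2 or shGas41-2 replicate 1.

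The pair of control sets, EB day 0 and shCon, are both undifferentiated shCon cells of the same line, yet the members differed between them. In the fit over 12 libraries 83 of 85 members had lower values at EB day 0, with a median of -0.34 against -0.004 for all genes. None was called by edgeR (0 of 85, against 0.325% of 19684 genes higher and 0.061% lower). An unadjusted p under 0.05 was found for 34 members, all lower, against 3519 of the 19684 genes in either direction. DESeq2 called 8 of 84 members lower and 0 higher, against 489 lower and 599 higher of 16579 genes. Atp5g1 stood at 146 and 152 CPM against 177 to 205 CPM, and Cox4i1 at 295 and 321 CPM against 326 to 454 CPM. Levels should therefore be read within the knockdown set and within the embryoid body set.

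Outside the members, log2 fold changes differed with transcript length. Genes outside the members with at most 1000 bases of exon and a mean of at least 10 CPM (775 genes) had median log2 fold changes of 0.26 with shGas41-1, 0.15 with shGas41-2, 0.16 from day 0 to day 6 and -0.30 at EB day 0 against shCon. Genes with over 2500 bases had medians of -0.12, -0.09, -0.01 and 0.08. Members with at most 1000 bases had medians of 0.05, 0.01, -0.29 and -0.34. Longer members had medians of 0.02, 0.03, -0.25 and -0.32, near those of the short members. At EB day 6 the short members thus lay below 0 where other short genes lay above it, and between the control sets they lay beside other short genes. Between the control sets the longer members lay at -0.32, where other genes with over 2500 bases lay at 0.08. The part of length in the member values was not tested.

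**Figure D5:**
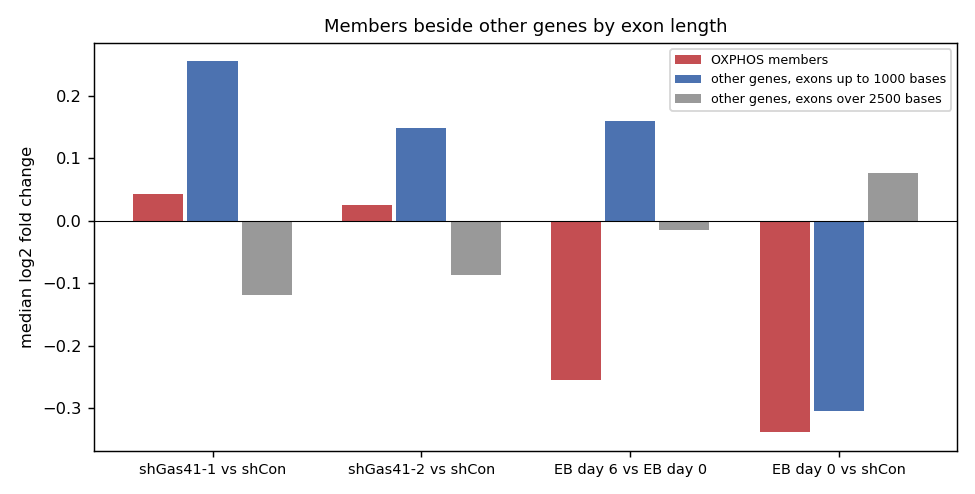
Median log2 fold change of the tested members (red) beside that of other genes with at most 1000 bases of exon (blue) and over 2500 bases (grey), both with a mean of at least 10 CPM. Members lie below other short genes in the 3 comparisons and beside them, at -0.34 and -0.30, between EB day 0 and shCon.

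Levels per kilobase of annotated exon spread widely within each complex. The highest and lowest shCon levels were taken among members tested in both knockdown comparisons with shCon. They were Ndufb9 (115 CPM per kb) and Ndufb2 (2.27) in complex I, and Sdhd (128) and Sdhb (28.0) in complex II. In complex III they were Uqcr10 (211) and Uqcrc2 (41.7), in complex IV Cox4i1 (579) and Cox8c (0.592), and in complex V Atp5b (541) and Atp5j (31.5). Cox7b2 was lower still in complex IV but was not tested in those comparisons. The exon length is the union of all annotated exons, which lowers the value of genes with long alternative exons. The tissue-restricted forms were low beside their common counterparts. Per kilobase in shCon, Cox4i2 stood at 1.28 CPM against 579 for Cox4i1, Cox6b2 at 7.37 against 201 for Cox6b1, Cox7a1, the form of heart and muscle, at 5.70 against 67.4 for Cox7a2, Cox7b2 at 0.199 against 118 for Cox7b, and Ndufa4l2 at 1.22 against 206 for Ndufa4. The muscle forms Cox6a2 and Cox8b were counted at most 7 times and 1 time in any library. Cox6b2 and Cox7a1 did not pass the test in the 3 comparisons as fitted here, with log2 fold changes between -0.47 and 0.44.

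The authors' gene counts treat some members less surely than others. Of the 87 members, 12 have at least 25% of their 50-base exon windows elsewhere in mm9, and 4 (Atp5o, Cox5a, Ndufa13 and Ndufb6) share at least 25% of their exon bases with other annotated genes. Their values are uncertain to that extent.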

How the data were processed

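The authors sequenced TruSeq libraries, aligned them to the mouse build mm9 with TopHat2 (2.0.10, with Bowtie2 2.1.0, per the submitters' notes) and counted reads per gene with HTSeq. The deposited values are raw counts per gene and library in 3 tables, which also hold the authors' fold changes and p-values; those were not used. Whether counting used strand is not given in the sources used here. The shCon columns are the same in both knockdown tables. ChIP-seq samples were not used.

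Each comparison was fitted on all genes passing filterByExpr (minimum count 10, total 15) with TMM scaling and edgeR 4.0.16 (R 4.3.3), quasi-likelihood test, two-sided, Benjamini-Hochberg adjusted over all genes tested; calls used an adjusted p of at most 0.05. Counting intervals cover counting error only. DESeq2 1.42.0, other scalings, no filter, a replicate block and leaving out each library were alternatives. Tests were run on simulated counts with the same spread setting for every gene and no library-wide shifts. That check covers the code and cannot show how the tests behave with the spread of these libraries. Replicate libraries differed beyond sampling noise. Named genes were the 4 Sdh genes, the 5 largest rises and falls per comparison, members past 2-fold, isoform pairs, the extremes per kilobase of each complex and names that are no subunit (the rule also held mitochondrially encoded members, which were not analysed here); further members and list genes were named after their values were seen. The members and lists were chosen with earlier results of these data known. Members were matched by gene ID to GENCODE vM1.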

Additional observations from a re-analysis of the deposited data

Results flagged for a closer look

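For 18 members the change from EB day 0 to EB day 6 differed from the mean knockdown change by the test of that difference over 12 libraries (edgeR, adjusted p at most 0.05). Of 85 members tested, 20% were lower, against 22.8% of all genes, and 1.18% higher, against 22.9%, so the lower share was near that of all genes. The differences are in log2, embryoid body change minus knockdown change. Ndufa4l2 was higher, at 7.86 (adjusted p = 0.000166), on 3 and 7 counts at EB day 0 and an uneven shCon group. Cox8c was lower, at -7.38 (adjusted p = 0.00165). EB day 6 had 0 counts of Cox8c in both libraries, so this fitted value depends on the prior count and is no bound.

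Atp5g1 was lower, at -1.65 (adjusted p = 7.18e-06). In complex IV, the differences were -0.874 for Cox4i1, -0.845 for Cox7c, -0.775 for Cox6a1, -0.567 for Cox5a and -0.443 for Cox8a. In complex III, they were -0.797 for Uqcrq, -0.763 for Uqcr10, -0.741 for Uqcr11 and -0.398 for Uqcrc1. In complex I, they were -0.87 for Ndufb10 and -0.404 for Ndufv1. Atp5b of complex V had -0.521. Among names that are no subunit or are copies, Atp5l-ps1 had -0.819, Atp5s -0.609 and Cox4nb -0.531. The adjusted p of these 15 genes lay between 0.0011 (Cox6a1) and 0.0471 (Atp5l-ps1). Of 15 alternatives, Atp5g1, Cox6a1, Cox8c, Ndufa4l2 and Ndufb10 lost the call in 0. It was lost in 12 for Uqcrc1, in 9 for Uqcr11, Cox4nb and Atp5l-ps1, in 8 for Uqcr10 and Atp5s, in 6 for Ndufv1 and in 5 for Cox4i1 and Uqcrq, and in 1 to 4 for the other 4 genes. The knockdown and embryoid body sets have separate controls that differ in the members, as given above. The part of that difference was not tested.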

How the results depend on the processing

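No member called in a comparison changed direction under any alternative run. Member counts moved as follows. For shGas41-1, the lower count went from 3 to 5 with library size alone and with DESeq2. A replicate block left 0 higher and 0 lower members, against 1107 higher and 442 lower of 18274 genes. In that fit edgeR gave Atp5g1 an adjusted p of 0.105, and 8 members had an unadjusted p under 0.05. Leaving out 1 library gave 0 to 5 higher and 0 to 7 lower. For shGas41-2, the lower count went from 0 to 2 with library size alone and 1 with DESeq2. The fit over 8 libraries left 1 higher of 85 members, against 828 higher of 19146 genes. The replicate block gave 10 higher and 18 lower of 84 members, with Cox7a1 among those called. Over all genes the block gave 3536 higher and 3630 lower of 18405. The lower members were thus near the share of all genes, and the higher members were below it. Leaving out 1 library gave 0 to 8 higher and 0 to 1 lower. For EB day 6, leaving out 1 library gave 1 to 6 higher and 7 to 39 lower, and the other alternatives 33 to 51 lower. For embryoid body minus knockdown change, DESeq2 gave 2 higher, and leaving out 1 library, added after seeing the data, gave 1 to 2 higher and 4 to 21 lower. For EB day 0 against shCon, DESeq2 gave 8 lower of 84 members, against 489 of 16579 genes. The cause of these moves was not tested. Fits that leave out a library also have fewer samples, and the part of this was not tested either.

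Same-numbered libraries did not deviate together in the shGas41-1 set (correlations of -0.191, 0.205 and -0.688). The other sets have 2 shared numbers each, with positive correlations of 0.574 and 0.535 for shGas41-2 and 0.115 in each EB pair. With 2 libraries in a group the deviations mirror each other, so these values are not separate observations and cannot settle pairing. The numbers were not taken as pairs in the main fits, and the replicate block is given above. Fits without mitochondrially encoded genes were not run, since these genes were not analysed here. Of 30 summed CPM values, 9 moved by more than their SD with library size alone. Counts of Cox8c, Cox4i2 and Ndufa4l2 limit what can be shown for them.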
